A study of Mus musculus with 70 samples.

Results

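The 8 genes described here, Tbr1, Emx1, Emx2, Neurod2, Neurod6, Fezf2, Bcl11b and Lhx2, encode transcription factors known from the telencephalon, the part of the brain that forms the cerebral cortex and the striatum. They were taken by name from the gene-level table of TPM (a level per unit of transcript length within a library), and all 8 were found among its 34677 genes. The study sequenced mRNA from tissue punches of mouse brain to map expression over regions that take part in energy balance, with further regions and stem cells for comparison. Its 70 libraries fell into 24 groups: 57 adult libraries from 18 regions, 9 embryonic libraries from 4 regions and 4 libraries of mouse embryonic stem cells (mESC).

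All adult libraries came from male mice at postnatal day 56, of the strain C57BL/6NTac in the paper and C57BL/6 in the labels. The cortical groups were the frontal pole (FRP), the anterior cingulate area (ACA) and the entorhinal area (ENT), with 3 libraries each, and the striatal group was the nucleus accumbens (ACB), with 3 libraries. The other 14 adult groups lie outside the telencephalon and are called the other adult regions. They comprised 5 hypothalamic groups, which were the arcuate (ARH, 3 libraries), ventromedial (VMH, 2), dorsomedial (DMH, 4) and paraventricular (PVH, 2) nuclei and the lateral area (LHA, 3). They also comprised the ventral tegmental area (VTA, 3) and 3 groups of hindbrain nuclei, namely the parabrachial nucleus (PB, 3), the solitary tract nucleus (NTS, 4) and the dorsal vagal complex (DVC, 3). The cerebellar groups were the lobules CENT2 (4), CUL4-5 (4), UVU (3) and FL (4) and the cerebellar nuclei (CBN, 3). The embryonic groups, from E14.5 embryos of the same strain, were forebrain (F, 1 library), midbrain (M, 2), hindbrain (H, 3) and hypothalamus (THy/PHy, 3). The mESC were 2 clones derived from C57BL/6, B6-1 and B6-2, with 2 libraries each. Each adult library pooled tissue of 3 or 4 mice except 1 ACB library made from 1 mouse, not identified in the material used here, and each embryonic library pooled tissue of 4 embryos. The study used fewer adult mice than it made adult libraries, so libraries of different regions share animals, and the tests treat them as independent. The same holds for the embryonic libraries, as fewer embryos were used than 4 for each library, so the comparison of THy/PHy with M and H rests on libraries that may share embryos. Samples were collected in batches whose assignment to libraries was not used here, so batch was not modelled.

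These factors act mostly while the telencephalon is built. Some act in dividing progenitors of the pallium, the dorsal part that becomes cortex, and others act in the excitatory neurons that leave those progenitors or decide where the axons of those neurons project. Several keep being transcribed in the adult neurons, and some also serve in other places, such as granule cells of the cerebellum, the striatum or the hypothalamus.

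The summed estimated counts of a library ran from 9074581 to 22229582, with a median of 17016935. The 9 cortex libraries held 15173723 to 20647884 counts, and the 3 ACB libraries 16047303, 18879106 and 19536018. The library of F had 22229582 counts, the largest total, and H replicate 1 had 9074581, the smallest. In the groups where a member was at 0 in all libraries, the gene could still have up to 0.15 to 0.231 CPM (its count scaled to the library total). These limits hold for the libraries of those groups, and H was not among them.

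Marker genes set the tissue labels beside the data. The summed TPM of 6 genes of cortical excitatory neurons was 3674 to 6441 in the cortex libraries, 1462 to 1681 in ACB and at most 1062 in the other adult regions. Of these 6, Nptx1 and Lamp5 were not highest in the cortex, with up to 419 and 462 TPM in the other adult regions against at most 130 and 316 in the cortex. The sum of 7 genes of striatal projection neurons was 3296, 3080 and 2471 in the 3 ACB libraries and at most 287 in any library outside ACB. For 4 genes of neural progenitors, F had the highest sum of all libraries, 909 TPM, with Nes as the most abundant gene. In F the library also held Nkx2-1 at 128 TPM and Dlx1 at 609 TPM, which mark the ventral part of the forebrain, so F is not a sample of the pallium alone. Because all libraries are bulk tissue, fewer cells that express a gene and less of its RNA per cell cannot be told apart anywhere in these data.

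Tbr1 encodes a T-box factor of early-born and deep-layer cortical excitatory neurons (ENSMUSG00000035033.15, GRCm38 chr2:61802930-61814114, plus strand). Its levels in the cortex were 90.2, 107 and 90.6 TPM in FRP, 102, 102 and 90.1 in ACA and 79.7, 67.5 and 69 in ENT. ACB had 4.32, 31.1 and 32.9 TPM, and F had 53.9. Among the other adult regions the highest values were 16.2 and 13.7 TPM in the 2 PVH libraries and 9.98, 7.44 and 6.2 in LHA, and the median over the 45 libraries was 0.423. The cortex thus stood above every other group, F came next, and PVH was the highest adult group outside the telencephalon. In the order of the 24 group means, ACA (97.8 ± 6.69 TPM, SD, n = 3) and FRP (96 ± 9.63) did not differ beyond their spread, and neither did ACB (22.8 ± 16), THy/PHy (21.3 ± 12.4) and PVH (14.9 ± 1.77). F has no SD, so pairs with F were left out of the counts of neighbours. Of the remaining 21 pairs for Tbr1, 2 differed by more than the larger of their SDs.

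Neurod2 and Neurod6 encode basic helix-loop-helix factors of differentiating and mature excitatory neurons. Neurod2 (ENSMUSG00000038255.6, chr11:98325415-98329648, minus strand) had 53.1, 56.9 and 38.1 TPM in FRP, 42.1, 58.9 and 49.5 in ACA and 55.6, 63.8 and 69.8 in ENT. In ACB it had 0.986, 13.3 and 12.3 TPM, in F 22.8, and in the 15 libraries of cerebellar lobules 70.9 to 140, with a median of 109. Every lobule library was above every cortex library, so the cortex was not where Neurod2 was highest. Its order ran from UVU (126 ± 13.3 TPM), CENT2 (111 ± 30.7), CUL4-5 (100 ± 13.7) and FL (90 ± 16.2), to ENT (63.1 ± 7.15), ACA (50.2 ± 8.4) and FRP (49.4 ± 9.97). No lobule group differed from the next lobule group beyond its spread, while FL differed from ENT. Among its 21 pairs of neighbours without F, 10 differed by more than the larger SD, the most of any member.

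Neurod6 (ENSMUSG00000037984.9, chr6:55677822-55681263, minus strand) had 80.2, 119 and 107 TPM in FRP, 147, 135 and 142 in ACA and 79.1, 73.4 and 46.7 in ENT. ACB had 2.06, 17 and 18.2 TPM, F had 30.5, and the 3 embryonic hindbrain libraries had 66.6, 67.9 and 55.8. The 45 libraries of the other adult regions ran from 0.181 to 8.25 TPM, with a median of 3.26. ACA was the highest group (141 ± 5.82), followed by FRP (102 ± 19.7), and ENT (66.4 ± 17.3) did not differ from embryonic hindbrain (63.4 ± 6.66) beyond its spread. In contrast to Neurod2, the lobules were far under the cortex for Neurod6. Among the other adult regions, however, FL (7.26 ± 0.824) and UVU (6.85 ± 0.797) were the highest groups, with CUL4-5 at 3.07 and CENT2 at 2.95. For Neurod6, 5 of 21 pairs of neighbours without F differed.

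Emx1 and Emx2 encode related homeodomain factors of pallial progenitors, and Emx1 is kept in cortical excitatory neurons and their lineage. Emx1 (ENSMUSG00000033726.8, chr6:85187438-85204462, plus strand) had 20.2, 21.1 and 13.8 TPM in FRP, 19.5, 20.5 and 21.8 in ACA and 17.6, 24.9 and 19.1 in ENT. ACB had 0.333, 2.97 and 2.22 TPM and F had 48.8. No library of the other adult regions exceeded 0.799 TPM, and 11 of the 45 were at 0. Embryonic midbrain, at 8 and 2.32 TPM, was the only group besides F, the cortex and ACB with a library above 1 TPM. The means of ACA (20.6 ± 1.16), ENT (20.5 ± 3.89) and FRP (18.4 ± 3.99) did not differ beyond their spread, and 2 of 22 pairs of neighbours without F did.

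Emx2 (ENSMUSG00000043969.4, chr19:59458372-59465357, plus strand) was spread more widely. It had 15.3, 18.7 and 12.9 TPM in FRP, 14.4, 16.1 and 17.9 in ACA, 13.7, 8.49 and 22.8 in ENT and 16.6, 15.8 and 14.9 in ACB. F had 86.9 TPM, embryonic midbrain 98.2 and 51.3, THy/PHy 26.6, 56.3 and 23.7 and embryonic hindbrain 17.2, 33.2 and 1.15. In the adult outside the telencephalon VTA had 11.8, 10.3 and 5.64 TPM, DMH 4.43, 4.77, 3.53 and 4.58, and all libraries of DVC, NTS and UVU were at 0, where the depth allowed up to 0.189, 0.179 and 0.214 CPM. F, M and THy/PHy were therefore the highest, and embryonic hindbrain (17.2 ± 16) did not differ from ACA beyond its spread. The means of ACA (16.1 ± 1.74), ACB (15.7 ± 0.856), FRP (15.6 ± 2.91) and ENT (15 ± 7.23) did not differ beyond their spread. For Emx2, 5 of 22 pairs of neighbours without F differed. Its gene overlaps the antisense gene Emx2os by 264 bases. Emx2os was not analysed here, and the part of that overlap in the Emx2 values was not tested.

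Lhx2 encodes a LIM homeodomain factor that sets cortical identity in progenitors (ENSMUSG00000000247.11, chr2:38339281-38369733, plus strand). It had 42, 39.5 and 31.3 TPM in FRP, 52, 59.3 and 54.6 in ACA, 58.9, 73.5 and 97.8 in ENT and 18.4, 29 and 29.4 in ACB. F had 206 TPM, embryonic midbrain 83.5 and 98.2, THy/PHy 63, 48.1 and 52.9 and embryonic hindbrain 11.4, 69.6 and 38.1. Among the other adult regions ARH was highest, with 12.8, 21.1 and 14.1 TPM, and PVH had 7.8 and 10.5, against a median of 2.34 over the 45 libraries. F stood far above all other groups, the cortex lay within the range of the remaining embryonic libraries, and 1 ARH library reached above the lowest ACB library. Of 22 pairs of neighbours without F, 7 differed beyond their spread.

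Fezf2 and Bcl11b act together in neurons of the deep cortical layers that project below the cortex, and Bcl11b is also a factor of striatal projection neurons. Fezf2 (ENSMUSG00000021743.6, chr14:12342094-12348189, minus strand) had 29.7, 42.2 and 44.4 TPM in FRP, 46.6, 55.2 and 44.6 in ACA and 37.9, 49.9 and 28.6 in ENT. ACB had 2.23, 6.24 and 5.92 TPM, F 28.5 and THy/PHy 28, 39 and 20.8. Adult hypothalamus ran from 0.569 to 3.64 TPM, with ARH highest at 2.57, 3.26 and 3.64, and all libraries of CBN, NTS and B6-2 were at 0, where the depth allowed up to 0.192, 0.179 and 0.231 CPM. Fezf2 was thus a gene of cortex, embryonic hypothalamus and forebrain, with a low level in adult hypothalamus. ACA (48.8 ± 5.65), ENT (38.8 ± 10.7) and FRP (38.7 ± 7.93) each differed from the next of these by no more than the larger SD, and 2 of 21 pairs of neighbours without F differed.

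Bcl11b (ENSMUSG00000048251.15, chr12:107910403-108003602, minus strand) had its highest levels in ACB, 134, 133 and 114 TPM. F had 82.4 TPM and embryonic midbrain 48.9 and 42.8. The cortex had 40.2, 24.3 and 43.6 TPM in FRP, 18.5, 24.9 and 21.3 in ACA and 47.2, 44.4 and 35.4 in ENT, and the 45 libraries of the other adult regions ran from 0.47 to 6.28. ACB (127 ± 11.4) came first and F, without an SD, came next, while M (45.9 ± 4.31), ENT (42.3 ± 6.14), FRP (36 ± 10.3) and H (29.2 ± 4.31) each differed from the next of these 4 by no more than their spread. H differed from ACA (21.6 ± 3.18), which came next. Of its 21 pairs of neighbours without F, 4 differed.

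**Figure D1:**
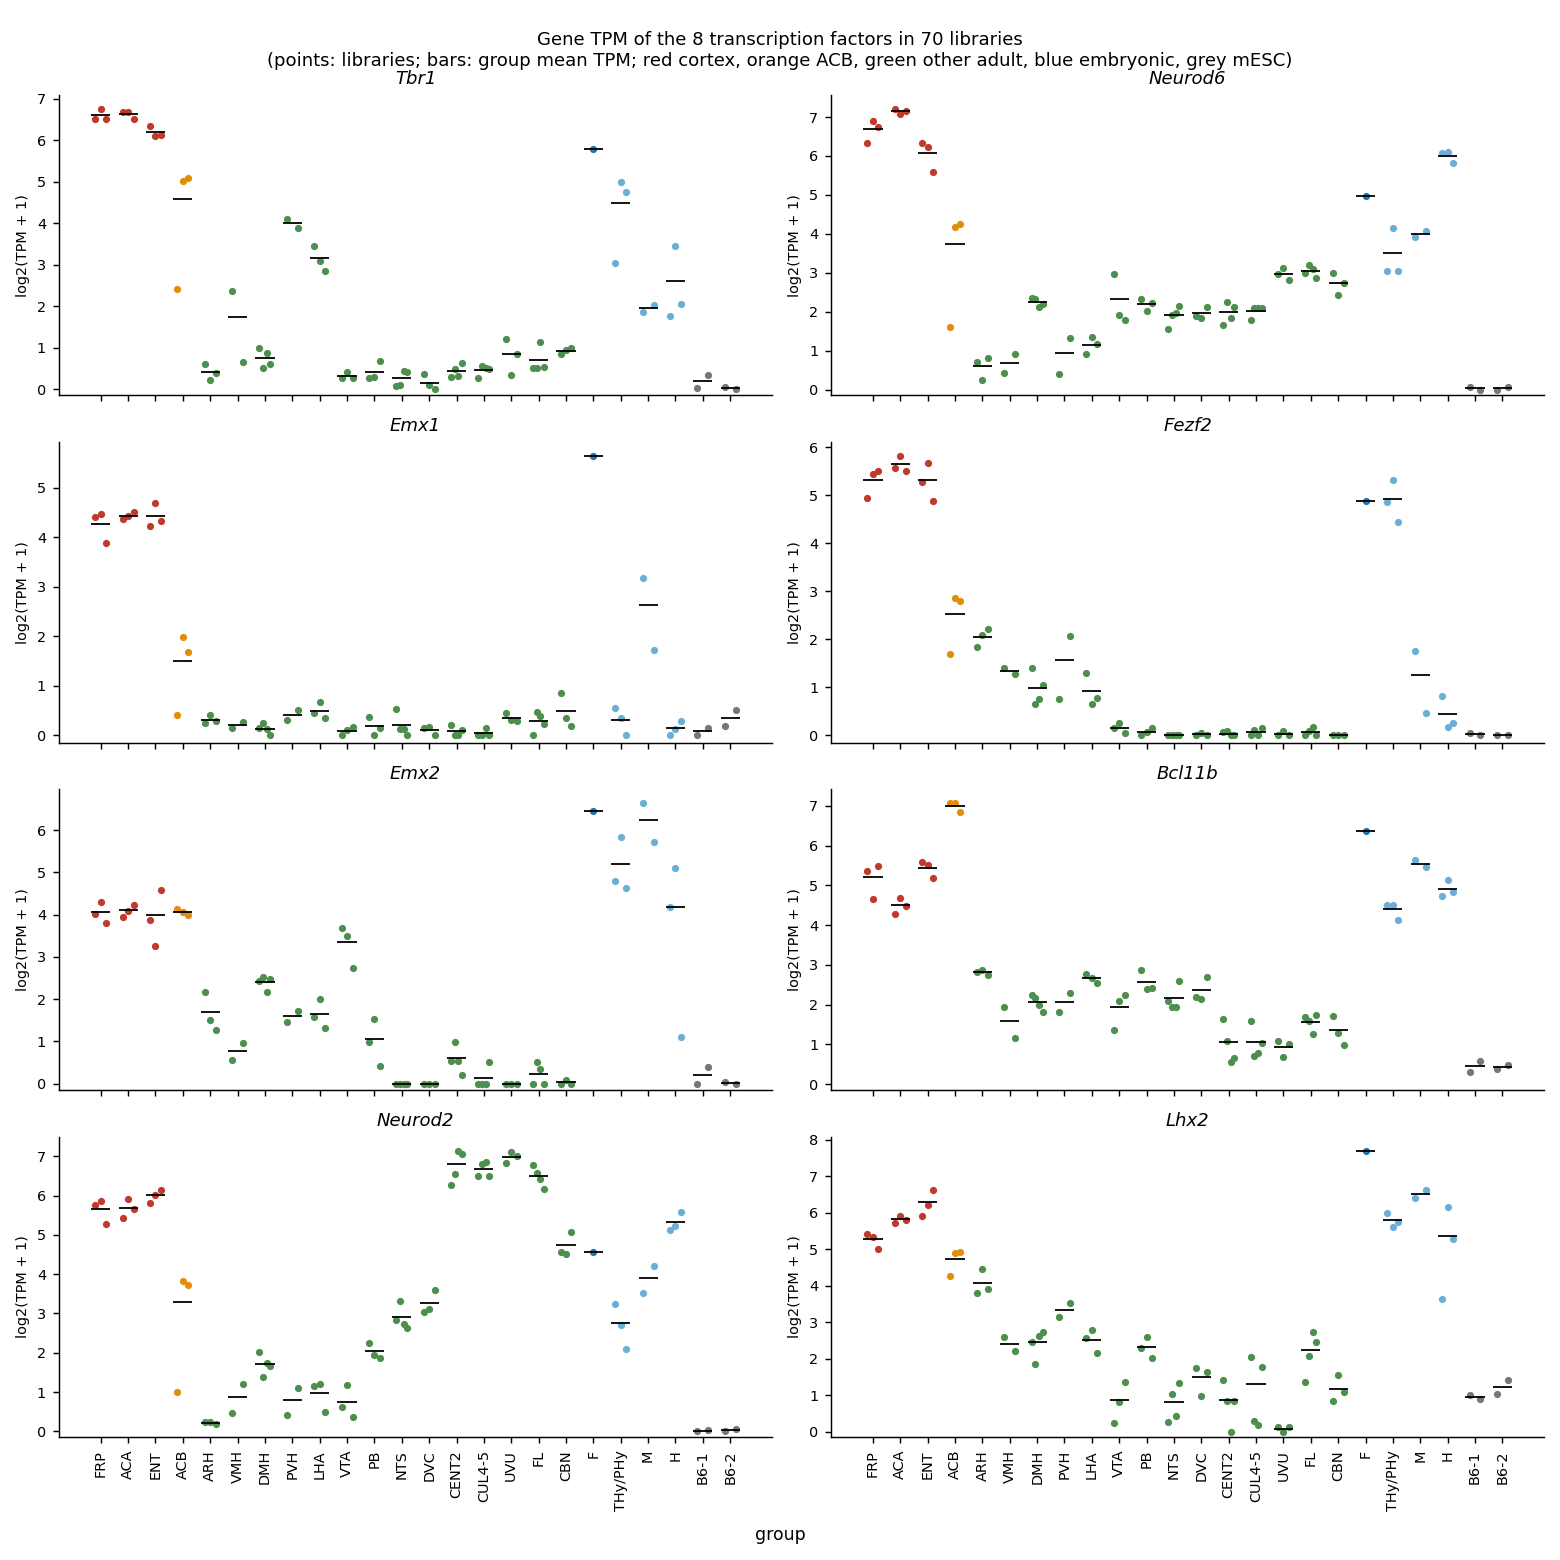
Levels of the 8 members in all 70 libraries, as log2(TPM + 1), over the 24 groups, with a bar at the group mean. The cortex libraries (FRP, ACA, ENT) are high for every member, Neurod2 is highest in the cerebellar lobules (70.9 to 140 TPM) and Bcl11b in ACB (114 to 134 TPM).

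The group mean of a gene as a percentage of the sum over the 24 group means shows how its expression was distributed. Cortex, ACB and F together held 92.8% for Emx1, 85.2% for Tbr1, 80% for Fezf2, 72.3% for Neurod6, 69.2% for Bcl11b and 62.5% for Lhx2. The same groups held 49.9% for Emx2, where the other embryonic groups held 42.6%, and 26.7% for Neurod2, where the cerebellar lobules held 58.5%. So 6 of 8 members had more than 50% of the summed means in cortex, ACB and F, as did 2.1% of the 19820 genes with a group mean of at least 1 TPM. Without F, the share was 29.4% for Emx2 and 44.8% for Lhx2, so both rest to a large part on this 1 library, and Lhx2 was then under 50%. Emx2 lay near the limit on the other side too, at 51.6% on CPM of the library total and up to 54.1% with 1 library left out. On the log2(TPM + 1) scale only Tbr1 (56%), Emx1 (75.2%) and Fezf2 (63.4%) stayed above 50%.

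**Figure D2:**
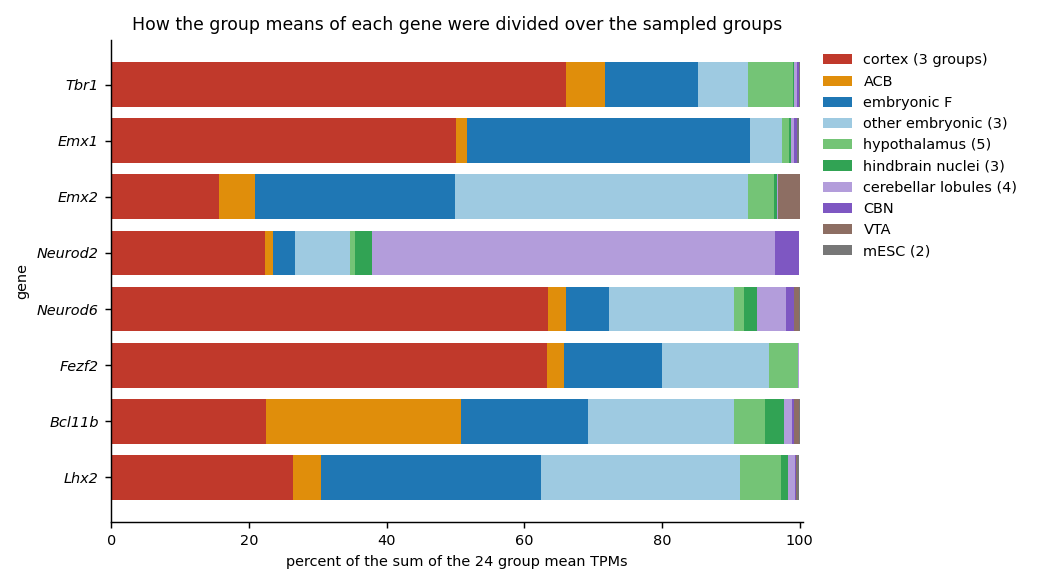
Each stacked bar splits the sum of the 24 group mean TPMs of a member into percentages by group of regions. Emx1 and Tbr1 are mostly cortex, ACB and F (92.8% and 85.2%), whereas Neurod2 is mostly cerebellar lobules (58.5%).

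The first tests compared the cortex and then ACB with the 14 other adult regions. In edgeR a gene was called when its adjusted p over 19980 genes was under 0.05 and its absolute log2 fold change above 1. The fold change takes the mean of the group coefficients on the log scale, so a region with a very high or very low level weighs differently in it than in a ratio of mean TPM. Its SE was derived from the edgeR test, which estimates the spread from all groups together. The SE and p therefore do not measure the spread among the libraries of any 1 group. The members were picked as telencephalic factors, so a higher level in the cortex follows from that choice and nothing is read from their number.

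Against the other adult regions, 8 of 8 members were higher in the cortex, and 8.49% of all genes tested were higher and 8.5% lower. The median log2 fold change was 5.73 over the members and -0.03 over all genes. For Tbr1 the log2 fold change was 7.08 ± 0.18 (SE; edgeR adjusted p 1.17e-36), with all 9 cortex libraries above the median of the other regions, and its mean TPM was 88.6 against 2.15. Emx1 differed by 7.15 ± 0.24 (adjusted p 6.51e-32, 9 of 9 libraries), with 19.8 against 0.189 TPM, and Neurod6 by 5.38 ± 0.16 (adjusted p 6.5e-34, 9 of 9), with 103 against 3.29 TPM. Bcl11b differed by 3.78 ± 0.11 (adjusted p 1.45e-33, 9 of 9) and Lhx2 by 5.04 ± 0.17 (adjusted p 5.07e-31, 9 of 9). All cortex libraries were above all 45 libraries of the other regions for 6 of 8 members, the exceptions being Emx2 and Neurod2, and 2.94% of 19084 genes had the same separation.

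For Emx2 and Fezf2 some of the other regions were at 0, so their fitted fold changes, 6.08 ± 0.24 (adjusted p 5.12e-26) and 8.53 ± 0.21 (adjusted p 2.97e-34) with 9 of 9 cortex libraries above the median for each, depend on the small count that edgeR adds. The same holds for Emx1, with 11 of the 45 other libraries at 0. For all 8 members limma gave a smaller value and still a call, namely 4.91 for Emx1, 3.61 for Emx2, 5.61 for Fezf2 and 5.99 for Tbr1 on log2(TPM + 0.5), and 6.33, 4.69, 7.05 and 6.78 on log2(TPM + 0.1). The median over the members, which lies between Neurod6 and Emx2, depends on the added count as well. In mean TPM the cortex had 9.67 times the level of the other regions for Emx2 and 66.5 times for Fezf2. Neurod2 differed by 3.27 ± 0.15 (adjusted p 2.62e-25, 9 of 9 libraries above the median), yet its mean TPM was only 1.59 times that of the other regions, 54.2 against 34, because the lobules were above the cortex and most remaining regions far under it.

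ACB against the same 14 regions had 7 of 8 members higher and none lower, and 8.42% of all genes were higher and 6.96% lower. The median log2 fold change was 4.35 over the members and -0.00 over all genes. This comparison shares its second arm with the cortex comparison, so the values stand side by side and are not independent. Bcl11b differed by 5.56 ± 0.14 (adjusted p 1.13e-36, 3 of 3 libraries), with 42.5 times the mean TPM. Tbr1 differed by 4.94 ± 0.25 (adjusted p 1.4e-23, 3 of 3) and Lhx2 by 3.75 ± 0.25 (adjusted p 3.14e-18, 3 of 3). For Tbr1 the ACB libraries themselves varied more (22.8 ± 16 TPM, SD). Its fold was 4.55 without ACB replicate 3 and 5.42 without replicate 1, both further from 4.94 than the SE. Emx1 differed by 3.72 ± 0.40 (adjusted p 2.8e-11, 3 of 3) and Neurod6 by 2.32 ± 0.27 (adjusted p 2.28e-10, 2 of 3). Emx2 (5.66 ± 0.32, adjusted p 1.3e-19, 3 of 3) and Fezf2 (5.32 ± 0.34, adjusted p 3.49e-18, 3 of 3) again depend on the added count, with 9.76 and 7.58 times the mean TPM. The fold of Emx1 depends on it too, as 11 of the 45 libraries of the other adult regions were at 0. Its mean TPM was 1.84 against 0.189, or 9.73 times, and limma gave 1.57 on log2(TPM + 0.5) and 2.57 on log2(TPM + 0.1).

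Neurod2 was the member not called in ACB, at 0.59 ± 0.28 (adjusted p 0.0783, 2 of 3 libraries above the median), and its sign depended on the scale. Its mean TPM in ACB was 8.88 against 34, and limma on log2(TPM + 0.5) gave -0.28. Without ACB replicate 1 the edgeR value was 1.11 and Neurod2 was called higher. The same omission moved Tbr1 to 5.42, Emx1 to 4.19 and Neurod6 to 2.81, and without ACB replicate 2 Emx1 was at 3.17. All ACB libraries were above all 45 libraries of the other regions for Emx2 and Bcl11b, 2 of 8 members, and 5.07% of 19084 genes were separated in this way.

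The cortex was then compared directly with ACB, with groups that both appear in the comparisons above. It was higher for 6 of 8 members, where 4.99% of all genes were higher, and lower for 1 of 8, where 5.57% of all genes were lower. The median log2 fold change was 2.41 over the members and -0.02 over all genes. The excess in the cortex was 3.43 ± 0.51 for Emx1 (adjusted p 2.25e-07), 3.20 ± 0.39 for Fezf2 (adjusted p 4.76e-09), 3.06 ± 0.38 for Neurod6 (adjusted p 3.19e-09), 2.68 ± 0.35 for Neurod2 (adjusted p 8.77e-09) and 2.14 ± 0.36 for Tbr1 (adjusted p 3.64e-06), with 9 of 9 cortex libraries above the ACB median each time. Lhx2 differed by 1.29 ± 0.35 (adjusted p 0.00297, 9 of 9) and was not called by limma on log2(TPM + 0.1), at 1.10. Bcl11b was the member that was lower in the cortex, at -1.78 ± 0.21 (adjusted p 1.25e-09, 9 of 9 libraries under the ACB median). Emx2 was not called (0.42 ± 0.37, adjusted p 0.425, 4 of 9 above the median), and its sign was -0.06 with limma. Every cortex library was above every ACB library for 6 of 8 members, and for 7.76% of 19084 genes.

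The 3 ACB libraries were not alike for the members. Replicate 1 was under 0.5 times both other ACB libraries for 5 of 8 members, and for 1.77% of the 15061 genes compared. That limit was chosen after the values were seen, so the count is a description. As a ratio of replicate 1 to the mean of replicates 2 and 3, Neurod2 was at 0.0769, Neurod6 at 0.117, Emx1 at 0.128, Tbr1 at 0.135 and Fezf2 at 0.367, whereas Lhx2 was at 0.63, Emx2 at 1.08 and Bcl11b at 1.09. Emx2 and Bcl11b, which ACB had at or above the cortex level, were not low in replicate 1. Of the genes listed below with a mean of at least 1 TPM in ACB, 2 of 14 cortical projection neuron factors, 2 of 5 early telencephalic and pallial factors and 1 of 17 subpallial and striatal factors were under the same limit, with median ratios of 0.921, 0.561 and 1.13. Some of the 14 had more in ACB than in the cortex, as Bcl11b did, such as Foxp2 (42 TPM in ACB and at most 7.18 in a cortex group).

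Of the 6 cortical excitatory markers, Slc17a7 (23.9 against 263 and 297 TPM), Slc30a3 (0.445 against 5.4 and 7.01) and Nptx1 (13.1 against 50.6 and 43.1) were also under 0.5 times both, and Camk2a, Nrgn and Lamp5 were not. None of the 6 was at 0, their sum was 1462, 1681 and 1638 TPM in the 3 libraries, and Camk2a was the most abundant. None of the 7 striatal markers was low in replicate 1, with ratios from 1.15 to 1.26. As a percentage of the cortex median, replicates 2 and 3 held 34.5% and 36.4% of Tbr1, 14.7% and 11% of Emx1, 23.9% and 22.2% of Neurod2, 15.9% and 17.1% of Neurod6 and 14.1% and 13.3% of Fezf2, and replicate 1 held 1.65% to 5.04% of these 5 members. For the 3 markers replicates 2 and 3 held 20.7% and 23.4% of Slc17a7, 4.4% and 5.71% of Slc30a3 and 41.8% and 35.6% of Nptx1. Replicate 1 held 1.88% of Slc17a7, 0.363% of Slc30a3 and 10.8% of Nptx1. What part cells of the cortex had in the ACB values was not tested. Without ACB replicate 1, the excess of the cortex over ACB was 1.66 for Tbr1, 2.96 for Emx1, 2.16 for Neurod2, 2.57 for Neurod6, 2.87 for Fezf2 and 1.16 for Lhx2 on the log2 scale, and all 6 were still called.

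**Figure D3:**
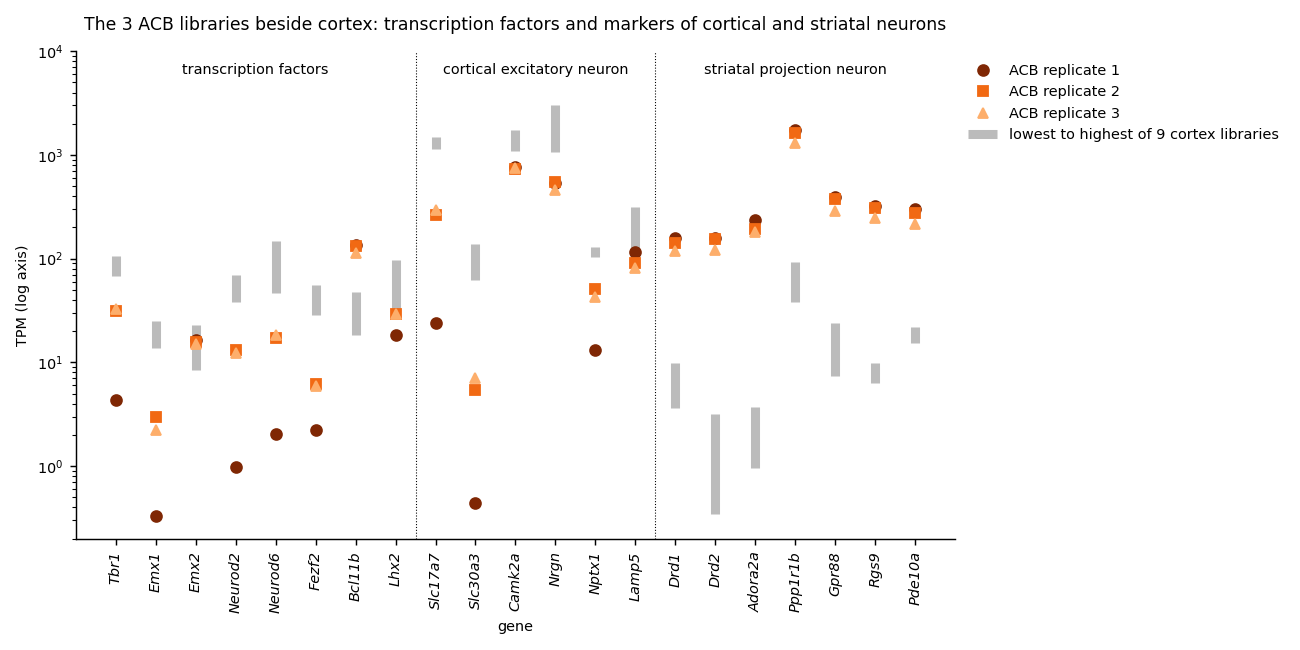
Points give the 3 ACB libraries and lines the range of the 9 cortex libraries, in TPM on a log axis, for the 8 members, 6 cortical excitatory markers and 7 striatal markers. ACB replicate 1 lies under the other ACB libraries for Tbr1, Emx1, Neurod2, Neurod6 and Fezf2 and for Slc17a7, Slc30a3 and Nptx1, and at or above them for the striatal markers.

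Within the cortex, ENT was compared with FRP and ACA to ask whether the entorhinal area differs from these frontal areas. With edgeR 0 of 8 members were called, where 1.96% of all genes were higher and 1.7% lower in ENT. At an unadjusted p under 0.05 there were 3 of 8 members and 4658 of 19980 genes, and DESeq2, limma and the other settings also called 0 members. The largest differences were 0.84 ± 0.33 for Lhx2 (adjusted p 0.0979, 3 of 3 ENT libraries above the median), -0.81 ± 0.34 for Neurod6 (adjusted p 0.118, 3 of 3 under it) and 0.69 ± 0.24 for Bcl11b (adjusted p 0.0528, 3 of 3 above it). These p-values miss the threshold and do not show that the areas were alike.

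Outside the telencephalon, the adult hypothalamus was set against the hindbrain nuclei. Of the 8 members, 4 were higher in the hypothalamus, where 4.43% of all genes were higher, and 2 were lower, where 4.25% of all genes were lower, with a median log2 fold change of 1.40 over the members and 0.02 over all genes. Tbr1 ran from 0.163 to 16.2 TPM in the 14 hypothalamic libraries (median 0.911) and from 0 to 0.589 in the 10 hindbrain libraries (median 0.207), and differed by 3.76 ± 0.45 (adjusted p 6.62e-10, 13 of 14 libraries above the hindbrain median). Within the hypothalamus it was uneven: PVH and LHA were high, VMH had 4.16 and 0.566 TPM, and the libraries of ARH and DMH had at most 1 TPM. Lhx2 ran from 2.63 to 21.1 TPM (median 5.42) against 0.206 to 4.99 (median 1.8), and differed by 2.08 ± 0.30 (adjusted p 5.13e-08, 14 of 14). For both genes the ranges of the regions overlapped.

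Emx2 had 0.469 to 4.77 TPM in the hypothalamus (median 2.15) and 0 to 1.89 in the hindbrain nuclei, where 7 of 10 libraries were at 0. Fezf2 had 0.569 to 3.64 TPM (median 1.43) and 0 to 0.119, where again 7 of 10 were at 0, so its ranges did not overlap. Their fitted differences, 5.18 ± 0.65 (adjusted p 5.26e-09, 14 of 14) and 6.10 ± 0.56 (adjusted p 1.45e-12, 14 of 14), depend on the added count, and without DVC replicate 2 the value for Fezf2 was 6.72. In mean TPM the hypothalamus had 6.4 times the hindbrain level for Emx2 and 69.9 times for Fezf2. Neurod2 was lower in the hypothalamus, with 0.136 to 3.07 TPM against 2.66 to 11.1, at -3.00 ± 0.27 (adjusted p 2.07e-13, 14 of 14 under the hindbrain median), and Neurod6 was lower at -1.63 ± 0.30 (adjusted p 1.06e-05, 10 of 14). For Neurod6 the hypothalamus was uneven, with a mean of 3.77 TPM in DMH and 0.53 to 1.22 in its other groups. DMH was above DVC (2.9) and NTS (2.76) and did not differ from PB (3.59) beyond its spread. Emx1 (0.73, adjusted p 0.333, 12 of 14) and Bcl11b (-0.18, adjusted p 0.399, 8 of 14) were not called. Among the hindbrain nuclei NTS replicate 1 stood apart with a choroid plexus sum of 10541 TPM, against at most 282 in the other 9 libraries, and leaving it out changed no call of a member here or in the comparison with the lobules.

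The cerebellar lobules, compared with the same hindbrain nuclei, had 2 of 8 members higher, where 8.62% of all genes were higher, and 2 of 8 lower, where 11.3% were lower. The median log2 fold change was 0.48 over the members and -0.01 over all genes. Neurod2, which acts in cerebellar granule cells as well as in the cortex, was at 70.9 to 140 TPM in the lobules and 2.66 to 11.1 in the hindbrain nuclei, with no overlap, and differed by 4.10 ± 0.22 (adjusted p 1.86e-22, 15 of 15). The 5 granule cell markers were high in the lobules as well, with sums of 1136 to 3215 TPM and Cbln1 most abundant in CENT2, and the part of these cells in the result was not tested. Bcl11b was lower at -1.92 ± 0.17 (adjusted p 3.73e-14, 15 of 15), with mean TPM of 1.26 against 4.21.

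Tbr1 (1.52 ± 0.55, adjusted p 0.0134, 14 of 15) and Lhx2 (-1.08 ± 0.45, adjusted p 0.0351, 10 of 15) were called between lobules and hindbrain nuclei at low levels, with mean TPM of 0.539 against 0.218 and 1.52 against 2.18, and limma on log2(TPM + 0.5), which moved the median of all genes by 0.14, called neither (0.51 and -0.69), while limma on log2(TPM + 0.1) called both (1.06 and -1.21). The call of Lhx2 was lost when any of 7 libraries was left out, namely CENT2 replicate 3 (-0.97), CUL4-5 replicate 3 (-0.98), DVC replicate 3 (-0.99), NTS replicate 3 (-1.06), NTS replicate 4 (-0.86), PB replicate 2 (-0.99) or UVU replicate 2 (-0.94).

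The cerebellar nuclei against the lobules had 2 of 8 members higher, where 11% of all genes were higher, and 1 of 8 lower, where 5.47% were lower. The median log2 fold change was 0.49 over the members and 0.03 over all genes. Neurod2 was the lower one, with 22.6, 21.7 and 32.4 TPM in CBN against 70.9 to 140, at -1.85 ± 0.31 (adjusted p 1.77e-06, 3 of 3 libraries). The granule cell marker sums of CBN were 312, 396 and 576 TPM, also under those of all lobule libraries. Tbr1 (1.28 ± 0.51, adjusted p 0.0336, 3 of 3) and Emx1 (1.98 ± 0.70, adjusted p 0.0159, 3 of 3) were called higher at means of 0.903 against 0.539 TPM and 0.401 against 0.144. Choroid plexus genes were high in CBN: the sum of the 3 genes Ttr, Folr1 and Kl was 12520, 3495 and 5329 TPM in its libraries, with Ttr most abundant and none at 0. In the lobules that sum was 4.83 to 17.4 TPM in CENT2, 0.984 to 3.05 in CUL4-5, 2.43 to 2074 in UVU and 33.2 to 3021 in FL, with Folr1 at 0 in CUL4-5 replicate 2. The part of this tissue in the values of Tbr1, Emx1 and Neurod2 was not tested. Both higher calls rested on single libraries: that of Tbr1 was lost without CBN replicate 2, where it was 1.20, and without CBN replicate 3, where it was 1.00, and that of Emx1 without CBN replicate 1, the library with the highest choroid plexus sum, where it was 1.29. With limma neither was called, at 0.50 and 0.81 for Tbr1 and 0.45 and 1.06 for Emx1, on scales that moved the median of all genes by -0.20. For Fezf2 all 3 CBN libraries were at 0 and the lobules at most at 0.137 TPM, so no fold is given.

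VTA was compared with the 13 remaining regions outside the telencephalon because Emx2 was high there. This reason was seen in the levels, so the test of Emx2 describes a difference already noticed. In VTA 2 of 8 members were higher, where 6.14% of all genes were higher, and 1 of 8 lower, where 3.53% were lower, with medians of -0.06 over the members and -0.00 over all genes. Emx2 differed by 5.96 ± 0.34 (adjusted p 1.21e-18, 3 of 3), a value that depends on the added count, and its mean TPM was 9.22 against 1.03. Neurod2 was lower at -2.86 ± 0.44 (adjusted p 5.31e-07, 3 of 3), with 0.691 against 36.6 TPM. Neurod6, with 6.87, 2.79 and 2.42 TPM, was called higher at 1.59 ± 0.31 (adjusted p 5.12e-05, 1 of 3 above the median), and this call rested on VTA replicate 1, since without it the value was 0.35 and was not called.

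Mitochondrially encoded genes took 39.6% of the TPM of VTA replicate 1, against 6.02% and 14.2% in replicates 2 and 3. Scales differed for this comparison: limma on log2(TPM + 0.5) moved the median of all genes by -0.53 and limma on log2(TPM + 0.1) by -0.56. On these scales 12.4% and 10.8% of the genes called in VTA were higher, against 63.5% with edgeR. Beside medians of all genes of -0.44 and -0.51 on these scales, Emx2 was higher (3.09 and 4.22), Neurod2 lower (-3.00 and -3.41) and Neurod6 not called (0.45 and 0.59). Lhx2, not called by edgeR, was called lower by both (-1.30 and -1.58), and Tbr1 by the limma fit with 0.1 alone (-1.30). The part of the mitochondrial share in these values was not tested.

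**Figure D4:**
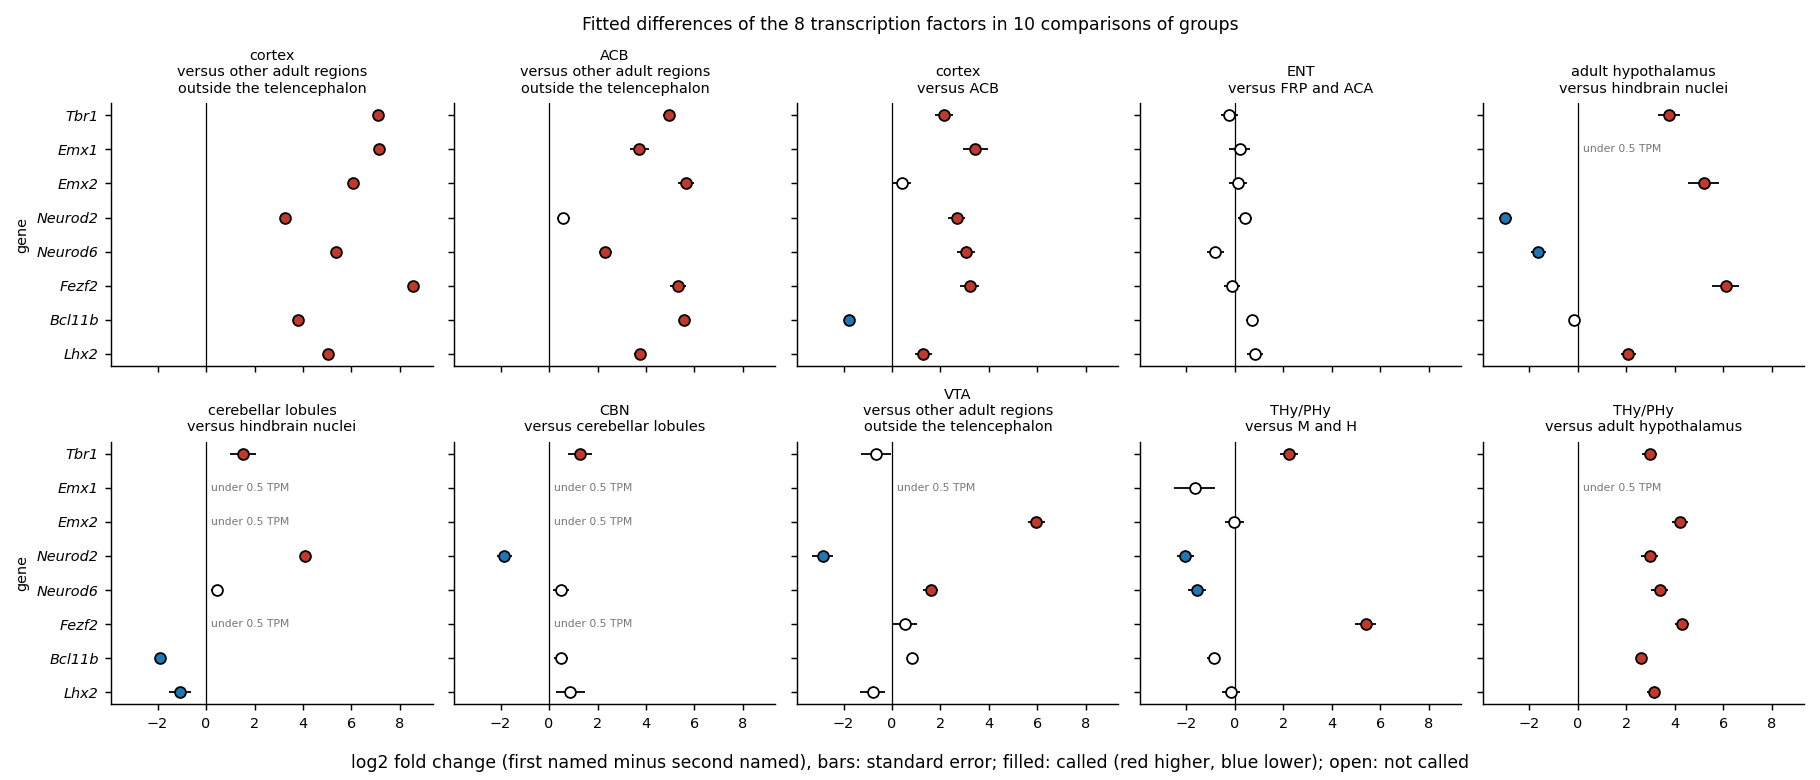
Log2 fold changes from edgeR with their SE for the 8 members in 10 comparisons, with filled points for calls and no point where both sides had a mean under 0.5 TPM. Emx1, Tbr1 and Fezf2 lie far to the right for the cortex (7.15, 7.08 and 8.53, of which Emx1 and Fezf2 depend on the added count), and Bcl11b is lower in the cortex than in ACB (-1.78).

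F, the embryonic forebrain, is 1 library, so its values have no replicate and no test. Its estimated counts, with exact 95% intervals for counting error alone, were 5800 for Lhx2 (5652 to 5951), 7056 for Bcl11b (6892 to 7223), 2102 for Tbr1 (2013 to 2194) and 856 for Emx1 (800 to 915). F was above all 8 other embryonic libraries for 4 of 8 members, and for 19.8% of 18019 genes. These members were Lhx2 (206 TPM against 11.4 to 98.2), Bcl11b (82.4 against 16.6 to 48.9), Tbr1 (53.9 against 2.38 to 30.6) and Emx1 (48.8 against 0 to 8). For the other 4, Emx2, Neurod2, Neurod6 and Fezf2, F lay within the range of the other embryonic libraries.

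Against the adult cortex F was above all 9 libraries for Emx1, Emx2, Bcl11b and Lhx2, at 2.46, 5.57, 2.47 and 3.65 times the mean of the cortex groups, and F was above all 9 for 39.9% of the 17660 genes with at least 1 TPM in F or a cortex library. It was under all 9 for Tbr1, Neurod2, Neurod6 and Fezf2, at 0.609, 0.421, 0.295 and 0.677 times, and for 31.3% of these genes. For Fezf2, F (28.5 TPM) and the lowest cortex library (28.6 TPM) were within counting error of each other, as F had 776 counts (722 to 833). Of the genes listed below, F was above the cortex for 4 and under it for 0 of 7 relatives, for 3 and 6 of 14 cortical projection neuron factors, for 9 and 1 of 11 early telencephalic and pallial factors and for 15 and 0 of 18 subpallial and striatal factors. Against ACB, F was above all 3 libraries for 7 members and 44.7% of 17002 genes chosen in the same way, and under them for Bcl11b, at 0.648 times the mean, and 40.9% of these genes.

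The embryonic hypothalamus, THy/PHy, was compared with embryonic midbrain and hindbrain, the embryonic groups with replicates. Of the 8 members, 2 were higher, where 1.44% of all genes were higher, and 2 lower, where 1.74% were lower, with medians of -0.53 over the members and 0.01 over all genes. Fezf2 had 28, 39 and 20.8 TPM in THy/PHy, 2.37 and 0.384 in M and 0.763, 0.138 and 0.201 in H, with no overlap, and differed by 5.40 ± 0.43 (adjusted p 3.15e-13, 3 of 3). Without M replicate 1 that value was 6.30, so its size rests in part on this library. Tbr1 had 7.28, 30.6 and 26.1 TPM, against 2.63 and 3.08 in M and 2.38, 9.87 and 3.17 in H, and differed by 2.22 ± 0.38 (adjusted p 2.64e-05, 3 of 3). The lowest THy/PHy library lay under the highest H library for Tbr1, so those groups overlapped. The sum of the 3 choroid plexus genes was 573, 1045 and 1919 TPM in H and 26.1 and 1649 in M, with Ttr most abundant, against 2.91, 3.67 and 4.71 in THy/PHy, and none of the 3 genes was at 0 in these libraries. H replicate 1 also had the smallest total count and 22.6% of its TPM in mitochondrially encoded genes. The part of choroid plexus in this comparison was not tested, and no call of a member changed when 1 library of M or H was left out.

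Neurod2 was lower in THy/PHy, with 8.52, 5.48 and 3.3 TPM against 10.4 and 17.6 in M and 33.6, 36.3 and 46.5 in H, at -2.05 ± 0.36 (adjusted p 5.27e-05, 3 of 3). Neurod6 was lower too, at -1.57 ± 0.38 (adjusted p 0.00326, 3 of 3), although THy/PHy replicate 2 (16.9 TPM) was above both M libraries (14 and 15.7). Bcl11b at -0.88 ± 0.27 (adjusted p 0.0247, 3 of 3) was under the fold limit and was called without THy/PHy replicate 2, at -1.02. Emx2 at -0.03 (adjusted p 1, 2 of 3 under the median), Lhx2 at -0.17 (adjusted p 0.891, 3 of 3) and Emx1 at -1.66 (adjusted p 0.259, 1 of 3) were not called by edgeR, and limma on log2(TPM + 0.5) called Emx1 lower (-1.25). The fold of Emx1 was -2.59 without THy/PHy replicate 1 and -1.07 without M replicate 1, and was called in neither case.

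THy/PHy was also set against the adult hypothalamus, a comparison between different animals that shares THy/PHy with the one before it and in which the part of batches was not tested. The embryonic tissue was higher for 7 of 8 members, all but Emx1, where 18.2% of all genes were higher, and for none lower, where 20% were lower, with medians of 3.04 over the members and 0.00 over all genes. The largest differences were 4.29 ± 0.28 for Fezf2 (adjusted p 2.18e-18, 3 of 3) and 4.20 ± 0.32 for Emx2 (adjusted p 8.67e-16, 3 of 3), and the smallest of the 7 was 2.62 ± 0.20 for Bcl11b (adjusted p 1.7e-16, 3 of 3). Emx1 was at 0.468, 0.268 and 0 TPM in THy/PHy and at most 0.601 in the adult. The sum of the neural progenitor genes also differed, with 499, 450 and 305 TPM in THy/PHy and 67.9 to 117 in the adult hypothalamus. The part of these cells in the differences was not tested.

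In mESC the members were low. Tbr1, Emx1, Emx2, Neurod2, Neurod6, Fezf2 and Bcl11b had at most 0.498 TPM in the 4 libraries, and Lhx2 had 1.02 and 0.871 in B6-1 and 1.04 and 1.65 in B6-2. These libraries entered the fit and no comparison.

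Other genes of the same programmes were grouped in 4 lists, which overlap. Bcl11a is counted among both the relatives and the cortical projection neuron factors. Eomes is counted among both the relatives and the early telencephalic and pallial factors. Of 7 nearest relatives of the members (Eomes, Tbx21, Neurod1, Neurod4, Fezf1, Bcl11a and Lhx9), 2 were higher and 1 lower in the cortex than in the other adult regions, 1 higher and 2 lower in ACB, and 2 higher and 0 lower in the cortex than in ACB. Of 14 cortical projection neuron factors these counts were 7 and 1, 6 and 2, and 7 and 2. Of 11 early telencephalic and pallial factors they were 5 and 1, 3 and 3, and 4 and 0. The 18 subpallial and striatal factors had 9 and 2, 15 and 0, and 0 and 14. Over all 19980 genes tested, 8.49% were higher and 8.5% lower in the cortex, and 8.42% higher and 6.96% lower in ACB. Between cortex and ACB 4.99% were higher and 5.57% lower in the cortex. Within FRP, replicates 1 and 3 stood above replicate 2 for several of the factors called higher in the cortex. In replicates 1 to 3 Dlx2 had 20.5, 4.64 and 18.6 TPM, Dlx5 26.1, 6.54 and 32.7 and Sp9 11.3, 1.81 and 10.6. Dlx6 (20.8, 8.73 and 25.3) and Meis2 (480, 196 and 466) were split in the same way, whereas Lhx6 and Foxp1 were not. Sp8, among the 5 early telencephalic and pallial factors called higher in the cortex, had 13.9, 2.23 and 17.2 TPM in FRP. Its means were only 0.38 TPM in ACA and 0.511 in ENT. Tbx21, among the 2 relatives called higher in the cortex, had means of 7.1 TPM in FRP, 0.105 in ACA and 0.0419 in ENT. The part of these FRP libraries in the calls was not tested. The median log2 fold changes of the lists, in that order, were 0.01, 1.00, 0.10 and 1.17 for the cortex, -1.39, 0.16, -0.98 and 4.44 for ACB, and 1.68, 1.04, 0.67 and -1.91 for cortex against ACB, beside 5.73, 4.35 and 2.41 for the members and -0.03, -0.00 and -0.02 for all genes.

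Among the relatives, Bcl11a, the paralogue of Bcl11b, was higher in the cortex (2.72, adjusted p 5.89e-34, 9 of 9) and in ACB (2.73, adjusted p 2.03e-26, 3 of 3), and was not called between cortex and ACB (-0.01, adjusted p 1, 4 of 9 under the median). Neurod1, a relative of Neurod2 and Neurod6, was not called in the cortex (0.01, adjusted p 1, 9 of 9 above the median, with 0.133 times the mean TPM) and was lower in ACB (-3.76, adjusted p 2.18e-10, 3 of 3). Eomes, a T-box factor like Tbr1, was not called in the cortex (-1.03, adjusted p 0.18, 5 of 9) and was lower without FRP replicate 3, at -1.57. FRP replicate 3 had 21.9 TPM of Eomes and 19.1 of Tbx21, against 2.02 and 3.58 and 1.29 and 0.88 in the other FRP libraries and at most 0.239 and 0.141 in ACA and ENT, and Tbr1 in that library (90.6 TPM) was within the range of the cortex. That library was singled out after its values were seen.

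Dlx1, a factor of subpallial interneurons, was called higher in the cortex (5.58, adjusted p 6.23e-33, 9 of 9) and ACB (5.31, adjusted p 2.25e-26, 3 of 3), but its mean TPM of 28 in ACA, 35.1 in ENT and 41.8 in ACB was under that of VMH (68.6) and ARH (46.4), and only FRP (96.5) was above them. FRP had 120, 40.4 and 129 TPM, so replicate 2 was under both means, and FRP (SD 48.8) and VMH (SD 30.1) did not differ beyond their spread. The fold came from groups near 0, such as NTS (0.0124), and the ratio of mean TPM was 3.41 for the cortex and 2.68 for ACB. Lmo4 was higher in both (3.16, adjusted p 1.13e-42, 9 of 9, and 1.92, adjusted p 5.22e-24, 3 of 3), and so was Mef2c (4.80, adjusted p 3.69e-42, 9 of 9, and 2.37, adjusted p 5.85e-21, 3 of 3). Foxp1 was higher in both as well (1.76, adjusted p 7.75e-31, 9 of 9, and 3.15, adjusted p 3.66e-36, 3 of 3) and, like Bcl11b, was lower in the cortex than in ACB (-1.39, adjusted p 1.24e-14, 9 of 9). In ACB, Pax6 (-0.98) was called lower without ACB replicate 2 (-1.21) or replicate 3 (-1.05), and Ebf1 (-0.82) without replicate 1 (-1.18).

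Likeness was measured by Pearson r of log2(mean TPM + 1) over the 22 brain groups, among 14710 genes with a mean of at least 5 TPM in some group, as a description without p. Groups of 1 stage or tissue share cell types and animals. Genes like Tbr1 included Poc1a (0.931), and Tbr1 and Fezf2 were like each other (0.915). Lhx2 was most like Ypel1 (0.968), Enox1 (0.941) and Arhgap33 (0.940), and Bcl11b most like Arhgap33 (0.928), Bcl11a (0.918) and Brms1 (0.916). For Emx1 they included Tnfrsf19 (0.904) and Epop (0.896), and for Emx2 Mn1 (0.925) and Rnf165 (0.916). For Neurod2 they were Bhlhe22 (0.918), Zbtb18 (0.911) and Nuak1 (0.900), and for Neurod6 Rtn4rl2 (0.889), Ubqln4 (0.888) and Nlk (0.868). Among the members, r was highest for Tbr1 with Fezf2 (0.91) and Bcl11b with Lhx2 (0.90), and Neurod2 had values from -0.01 with Emx2 to 0.58 with Neurod6.

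The annotated transcripts that carried the TPM differed between members. Neurod2 and Neurod6 have 1 transcript each. In the libraries with at least 5 TPM, Fezf2-201 held a median of 89.2% of Fezf2 (15 libraries), Bcl11b-201 69.4% (29), and Lhx2-201 59.7% (31). For Emx1, Emx1-201 held 65.5% and a transcript with a retained intron 34.5% (11). For Tbr1 the protein-coding Tbr1-201 held 60.1% and the processed transcript Tbr1-203, which codes for no protein, 39.4% (21 libraries), and for Emx2 the processed transcript Emx2-203 held 47.5% (23 libraries). Part of the TPM of Tbr1, Emx1 and Emx2 was thus assigned to annotated transcripts without a coding sequence, from single short reads that these transcripts share with the coding ones.

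Promoter windows of 250 bases before and 50 after the start, from RefSeq on build GRCm38.p6, were found for all 8 members, in 9 windows, since Lhx2 has 2. Motifs that members of these factor families are known to bind were searched in the windows on both strands. For homeodomain factors the core was TAATTA, which reads the same on both strands. For helix-loop-helix factors the first E-box was CAGATG, which on the other strand reads as the letters CATCTG. The second E-box searched was CAGCTG, and the third E-box searched was CATATG, and each of these reads the same on both strands. For T-box factors the core was AGGTGT, which on the other strand reads as the letters ACACCT. Of all 32851 windows, 5.29% held TAATTA, with CAGATG in 17.2%, CAGCTG in 16.3%, CATATG in 3.91% and AGGTGT in 13.7%. Among the members, TAATTA was in the windows of Tbr1, with 2 matches, and Emx2, CAGATG in those of Neurod2 and, for the second window, Lhx2, CATATG in that of Neurod2 and AGGTGT in that of Neurod6. CAGCTG was in none of the 9. The windows of Tbr1 (chr2:61804203-61804502, plus strand), Neurod2 (chr11:98329596-98329895, minus strand) and Neurod6 (chr6:55681214-55681513, minus strand) are printed because these genes share a high cortex level and differ in the cerebellum, and that of Emx2 (chr19:59458440-59458739, plus strand) because it is the other member window with TAATTA. Each runs 5′ to 3′ on the strand of its gene, with capitals for the motifs. A match is a description of the letters and not a bound site.
Tbr1: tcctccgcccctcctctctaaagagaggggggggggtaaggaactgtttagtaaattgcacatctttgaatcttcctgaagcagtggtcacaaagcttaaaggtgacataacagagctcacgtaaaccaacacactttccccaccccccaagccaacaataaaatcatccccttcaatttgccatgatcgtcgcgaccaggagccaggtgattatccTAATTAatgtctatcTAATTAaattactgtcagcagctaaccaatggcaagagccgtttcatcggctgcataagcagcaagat
Neurod2: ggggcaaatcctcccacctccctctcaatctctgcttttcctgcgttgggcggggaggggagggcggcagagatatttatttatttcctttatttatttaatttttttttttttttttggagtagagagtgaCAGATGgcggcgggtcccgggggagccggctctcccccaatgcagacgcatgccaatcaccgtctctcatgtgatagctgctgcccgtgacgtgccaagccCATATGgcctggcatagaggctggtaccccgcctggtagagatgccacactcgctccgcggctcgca
Neurod6: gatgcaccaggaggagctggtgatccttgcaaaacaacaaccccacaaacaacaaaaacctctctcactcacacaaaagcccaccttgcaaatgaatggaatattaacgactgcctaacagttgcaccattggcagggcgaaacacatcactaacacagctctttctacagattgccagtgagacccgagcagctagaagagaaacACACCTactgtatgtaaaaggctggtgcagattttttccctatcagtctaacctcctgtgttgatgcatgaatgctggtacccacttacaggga
Emx2: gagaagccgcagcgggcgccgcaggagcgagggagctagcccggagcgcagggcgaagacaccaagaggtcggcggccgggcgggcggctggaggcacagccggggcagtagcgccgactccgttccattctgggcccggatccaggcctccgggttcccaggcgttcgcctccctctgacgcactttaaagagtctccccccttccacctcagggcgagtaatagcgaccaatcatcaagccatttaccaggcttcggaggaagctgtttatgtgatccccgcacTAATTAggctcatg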

How the data were processed

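The 70 libraries were strand-specific mRNA libraries read as single short reads. The authors made reads with CASAVA 1.8.2 and deposited an estimated count per transcript from kallisto on GRCm38. The deposited TPM per gene was the sum of its transcripts' TPM from the same run, made by the authors, and the strand setting used in counting was not stated in the material used here. Of 109282 transcripts, 107987 (98.8%) were matched to a gene, giving 34505 genes with counts, and 0 columns of values were left unused.

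Estimated counts were summed per gene, rounded and fitted with edgeR 4.0.16 (quasi-likelihood, 24 group coefficients, R 4.3.3) over 19980 genes that passed its filter on low counts, all 8 members among them. Genes were called at a Benjamini-Hochberg adjusted p under 0.05 if their log2 fold change was also above 1 or under -1. F entered the fit but no comparison and is given as values, with 95% intervals that cover counting error only. The counting floor was 3 counts. Alternatives were DESeq2 1.42.0, no filter on low counts, limma 3.58.1 on log2(TPM + 0.5) and log2(TPM + 0.1) for genes of at least 1 TPM in 2 libraries, a replicate block and a fit without mESC. In 65 further fits 1 library each was left out, with the filter, the dispersion trend and the p cutoff of the full fit. Calling was also run on simulated data, but the outcome is not given here and nothing is read from it.

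Genes that could be named were the 8 members, the genes of the 4 lists, the 3 genes most like each member, Emx2os and the marker genes, and not all of them are given. Log2 fold changes of single list genes are given only among the 4 of highest mean TPM in a list, and levels for some others as well. The members and lists were chosen with earlier results of these data known. Python 3.11.15 with numpy 2.4.6, pandas 2.3.3, scipy 1.17.1 and matplotlib 3.10.9 computed levels, shares, likeness, motifs and figures.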

Additional observations from a re-analysis of the deposited data

Results flagged for a closer look

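In groups of 4 libraries, 38 pairs of a member and a group were examined for a library far from the others, by the gap to its nearest neighbour divided by the range of the group, against the 95% critical value of Dixon. Chance gives about 1 such case in 20 groups, and 4 were found. Tbr1 in FL replicate 3 had 1.2 TPM against 0.419, 0.434 and 0.449 (ratio 0.961). Emx1 in CUL4-5 replicate 3 had 0.103 TPM with the other 3 libraries at 0 (ratio 1), and Emx2 in CUL4-5 replicate 4 had 0.415 TPM with the other 3 at 0 (ratio 1). Neurod6 in CUL4-5 replicate 1 had 2.46 TPM against 3.26, 3.29 and 3.25 (ratio 0.951). For Emx1 and Emx2 the value was 1 count, under the floor of 3 counts, and with the other libraries at 0 the ratio is 1 for any count, so these 2 cases say nothing about the library. The other 2, Tbr1 and Neurod6, were also in cerebellar lobules at low levels.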

How the results depend on the processing

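Under 6 alternative settings, 467 of 480 log2 fold changes of members kept their side of the threshold, 9 fell short of it and 4 newly passed it, all 13 with limma. No called value of a member reversed, and 19 folds that were called in neither fit changed sign. Member counts changed by more than 1.5 times in 3 cases: lobules against hindbrain nuclei had 2 members with limma on log2(TPM + 0.5) instead of 4, and CBN against lobules had 1 with each limma scale instead of 3. Over all genes, hypothalamus against hindbrain nuclei had 1128 calls with limma on log2(TPM + 0.5) instead of 1735, and VTA had 3208 with limma on log2(TPM + 0.1) instead of 1932. The causes were not tested. On log2(TPM + 1), 3 members instead of 6 had more than 50% of their summed group means in cortex, ACB and F, and on CPM 7 had. Of the 24 genes most like a member, 7 were shared when Spearman rho was used and 4 when only the 18 adult groups were used.

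Leaving out 1 library kept the side of the threshold for 2067 of 2080 log2 fold changes of members, with 11 calls lost, 2 gained and 10 uncalled folds that changed sign, and all 260 member counts stayed within 1.5 times. With a replicate block, cortex against the other adult regions had 3411 calls instead of 3395, and the same members were called in all 10 comparisons. The replicate number is not known to follow the animals that regions share, so this block does not test that sharing. Deviations from the group mean had a mean correlation of 0.008 between libraries of the same replicate number and -0.003 between other numbers, and 27 of 69 libraries correlated best with those of their own number.

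Depth limits genes near 0 TPM, such as Emx2 and Fezf2 in the hindbrain. F is 1 library, PVH and VMH have 2, libraries are pools that share mice, and embryos, between regions, and batches were not modelled.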
